A study of Mus musculus with 12 samples.

Results

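The motor genes described here are the 104 genes, of 24421 gene symbols counted, whose symbols carry the kinesin stems Kif and Kifc, the myosin stems Myo and Myh, or the dynein stems Dync, Dynl and Dnah. They were chosen by symbol and not by any measured value. By role they comprised 14 mitotic kinesins, 50 transport and ciliary motors, 37 myosins and 3 other kinesins (Kif12, Kif26a and Kif26b). Of the 104, 16 had no count in any library, 21 had counts but too few to be tested, and 67 were tested: 13 mitotic kinesins, 34 transport and ciliary motors and 20 myosins. A gene low in one group could pass the filter on low counts through the other group alone, so the tested genes are not the whole family.

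RNA was measured in splenic CD8+ T cells, the cytotoxic lymphocytes, of C57BL/6 mice, a common inbred strain. One group had received DMSO, the solvent (DMSO group, 6 libraries). The other had received an inhibitor of EZH2, the enzyme that places a repressive methyl mark on histone H3 (EZH2i group, 6 libraries). The labels give no genetic change in either group, and none of the inhibitor's name, dose and timing, the age and sex of the mice, and whether treatment was in the animal or in culture is given in the sources used here. Whether each library came from its own mouse or culture is not in the labels, and p-values therefore measure the spread between libraries, which may be technical.

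Molecular motors turn ATP hydrolysis into movement along the cytoskeleton. Kinesins and dyneins walk on microtubules, most kinesins towards the fast-growing plus end and dyneins towards the minus end, whereas myosins pull on or walk along actin filaments. In dividing cells a specialised set of kinesins builds the spindle, moves chromosomes and completes cytokinesis. In T cells, myosin II and class I myosins serve migration, cell stiffness and the immune synapse, and dynein draws the centrosome and lytic granules towards the target cell. Axonemal dyneins drive the beating of motile cilia, which lymphocytes lack.

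Library totals ran from 17215483 to 28092434 counts in the DMSO group and from 19610258 to 31206228 in the EZH2i group. Markers of CD8 T cells summed to 3746 to 4966 counts relative to the scaled library size (CPM) in the DMSO libraries and 2821 to 4010 CPM in the EZH2i libraries, against 19.9 to 25.8 and 15.3 to 23.6 CPM for B cell markers. All 6 CD8 T cell markers had log2 fold changes below 0 (median -0.32), and 3 were called lower: Cd8a (-0.30, adjusted p = 0.00129), Lck (-0.35, adjusted p = 0.00186) and Cd3g (-0.37, adjusted p = 0.0488, lost in 10 of 20 alternatives). The library numbered 6 stood apart from the other 5 in both groups: on the first principal component, which held 50.9% of the variance, DMSO library 6 lay at -53.4 and EZH2i library 6 at -47.5, and the other 10 libraries lay between -4.03 and 23.2. The groups share the numbers 1 to 6, and a second fit took the number as a block. Its values are given for the motor genes described in full where it changed a call. With the block 4 of the 6 CD8 T cell markers were lower, Cd8b1 among them (adjusted p = 0.198 unblocked and 0.000208 blocked). Means are given with their SD over 6 libraries throughout.

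Across all motor genes, EZH2i libraries had higher levels of 14 genes and lower levels of 2 at a Benjamini-Hochberg adjusted p under 0.05 in edgeR's quasi-likelihood test. These calls were 20.9% and 2.99% of the 67 tested motor genes, beside 13.3% higher and 6.05% lower over all 11727 genes tested. In either direction, 23.9% of the tested motor genes and 19.3% of all tested genes were called. The higher genes named here were myosins (Myh10, Myo1e, Myo6, Myo10 and Myo7a), transport kinesins (Kif17, Kif5a, Kifc3, Kif3a, Kif1b and Kif13b), the ciliary kinesin Kif19a and the axonemal dynein Dnah11. Both lower genes, Myo1g and Myo1c, were class I myosins. No mitotic kinesin was called. Each of the 14 higher genes was higher in EZH2i in 6 of 6 same-numbered library pairs. Where all EZH2i libraries lay above all DMSO libraries, any pairing would give this count.

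The CPM ranges of the groups did not overlap for 11 of the 67 tested motor genes (16.4%), beside 10.2% of all tested genes. With the replicate block, 25 motor genes were higher and 18 lower, beside 24.7% and 24.3% of all tested genes, so the block added more lower calls than higher ones in the motor genes and in the whole table. Without both libraries numbered 6, 24 were higher and 11 lower, beside 23.9% and 20.9% of all genes tested in that fit, and the 16 calls of the whole set were among them. Upper-quartile scaling gave 17 higher and 1 lower, beside 15.3% and 2.96%, and DESeq2 gave 18 higher and 3 lower, beside 15.0% and 9.59%. The median log2 fold change was 0.07 over the 67 motor genes and -0.01 over all tested genes.

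**Figure D1:**
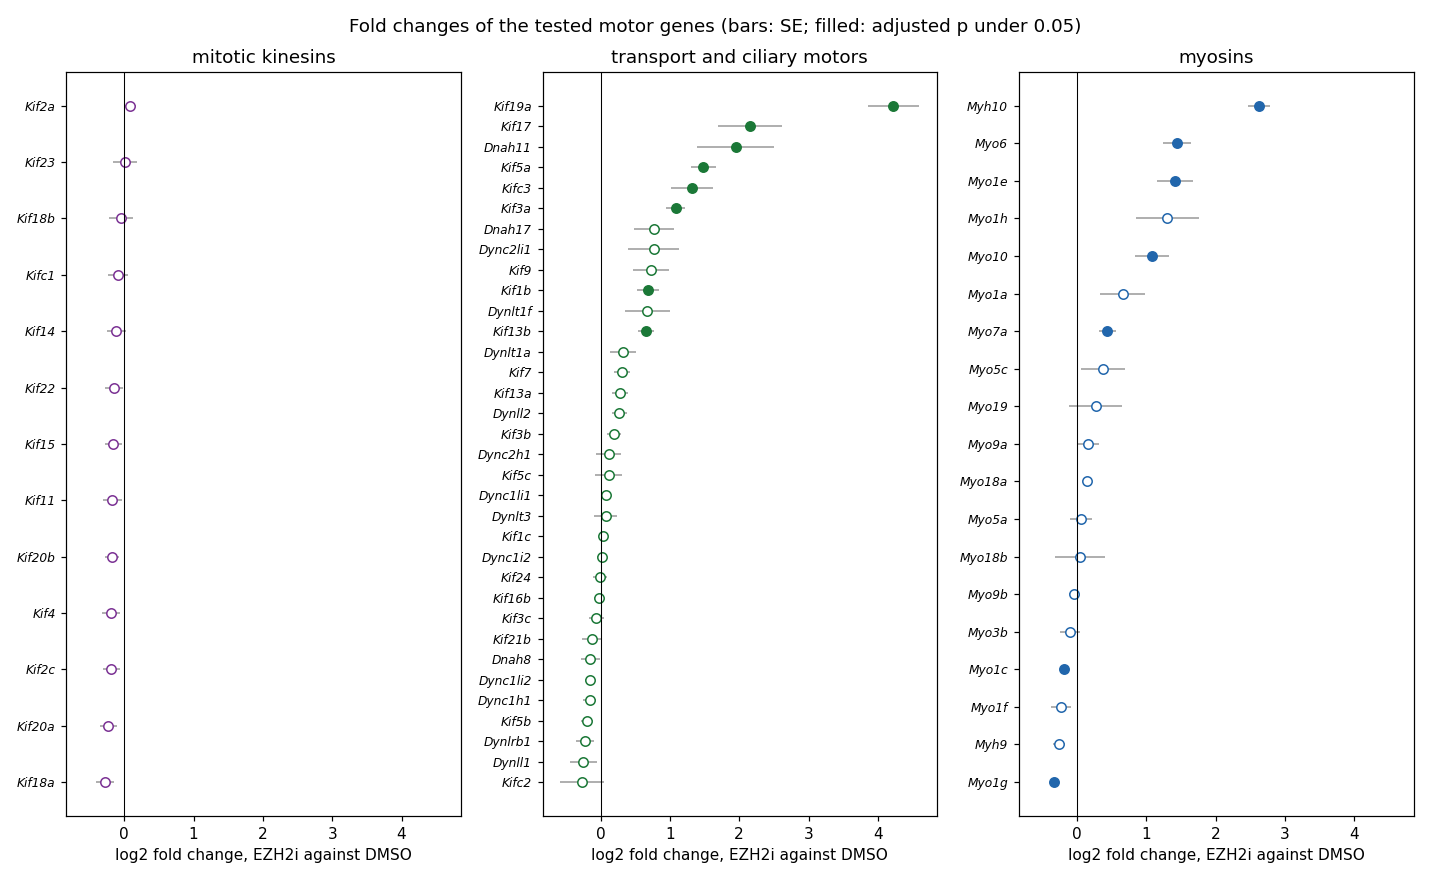
Log2 fold change (EZH2i against DMSO) of 66 of the 67 tested motor genes, grouped by role, with bars of 1 SE from edgeR's fit and filled points for called genes. Mitotic kinesins lie between -0.27 and 0.08 with no call, whereas the other motors spread up to 4.23 for Kif19a.

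Non-muscle myosin II supplies the contractile force of the cell cortex and consists of a pair of heavy chains with light chains. Its heavy chain gene Myh10 (myosin IIB; GRCm38 chr11:68691559-68816632) had the smallest adjusted p among the motors. Myh10 had 1.76, 2.65 and 3.54 CPM as the lowest, median and highest DMSO values and 13.3, 16.3 and 18 CPM in EZH2i. All EZH2i libraries lay above all DMSO libraries, including those numbered 6. The mean was 2.60 ± 0.653 CPM in DMSO and 16.1 ± 1.56 CPM in EZH2i (SD, n = 6 each), a log2 fold change of 2.62 (SE 0.158, adjusted p = 8.38e-07 with edgeR). In bulk RNA, a change in the number of cells of a type and a change in RNA per cell cannot be told apart. The 7 markers of fibroblasts and smooth muscle cells, which also express Myh10, summed to 0.357 to 1.42 CPM in DMSO and 1.61 to 5.71 CPM in EZH2i. Most of this difference was Pdgfrb, at 0.392 ± 0.219 and 3.09 ± 1.13 CPM, the only one of 3 tested markers that was called without the block. All 3 were called higher with the block. The other 2, Col1a1 and Tagln, had log2 fold changes of 1.13 and 0.96 (adjusted p = 0.0831 and 0.161 unblocked, 0.011 and 0.0375 blocked). Of the untested markers, Dcn was at 0 in every library and Col1a2 had 2 counts in DMSO and 10 in EZH2i. Col3a1 had 0 counts in DMSO and 3 in EZH2i, and Acta2 had 10 and 7. The part of such cells in the Myh10 result was not tested.

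Myh9 (myosin IIA; chr15:77760587-77842175) was by far the more abundant heavy chain gene, with the highest level per kilobase of exon of all motor genes, 113 CPM per kb in DMSO against 0.248 CPM per kb for Myh10. Myh9 had 1250, 1453 and 1726 CPM as the lowest, median and highest DMSO values and 968, 1269 and 1320 CPM in EZH2i, and the groups overlapped. Its log2 fold change was -0.26 (SE 0.0901, adjusted p = 0.0605). It was lower in EZH2i in 6 of 6 same-numbered pairs, and it was called lower with the replicate block (adjusted p = 0.0011) and without both libraries numbered 6 (adjusted p = 0.00555). Scaled for exon length, Myh10 made up 0.219% ± 0.0468 of the non-muscle myosin II heavy chain counts in DMSO and 1.61% ± 0.0904 in EZH2i (SD, n = 6 each). Myh14 (myosin IIC) had 0 counts in all DMSO libraries and 7 in the EZH2i libraries, at least 1.95-fold higher against a floor of 3 counts over the DMSO group. Of the 10 muscle myosin heavy chain genes, 6 had no count and none was tested. The most counted of them, Myh11 of smooth muscle, had 12 counts in DMSO and 19 in EZH2i. Striated muscle markers summed to 1.96 to 2.59 CPM in DMSO and 3.03 to 5.96 CPM in EZH2i, led by Tnnt3, with Mb at 0.

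**Figure D2:**
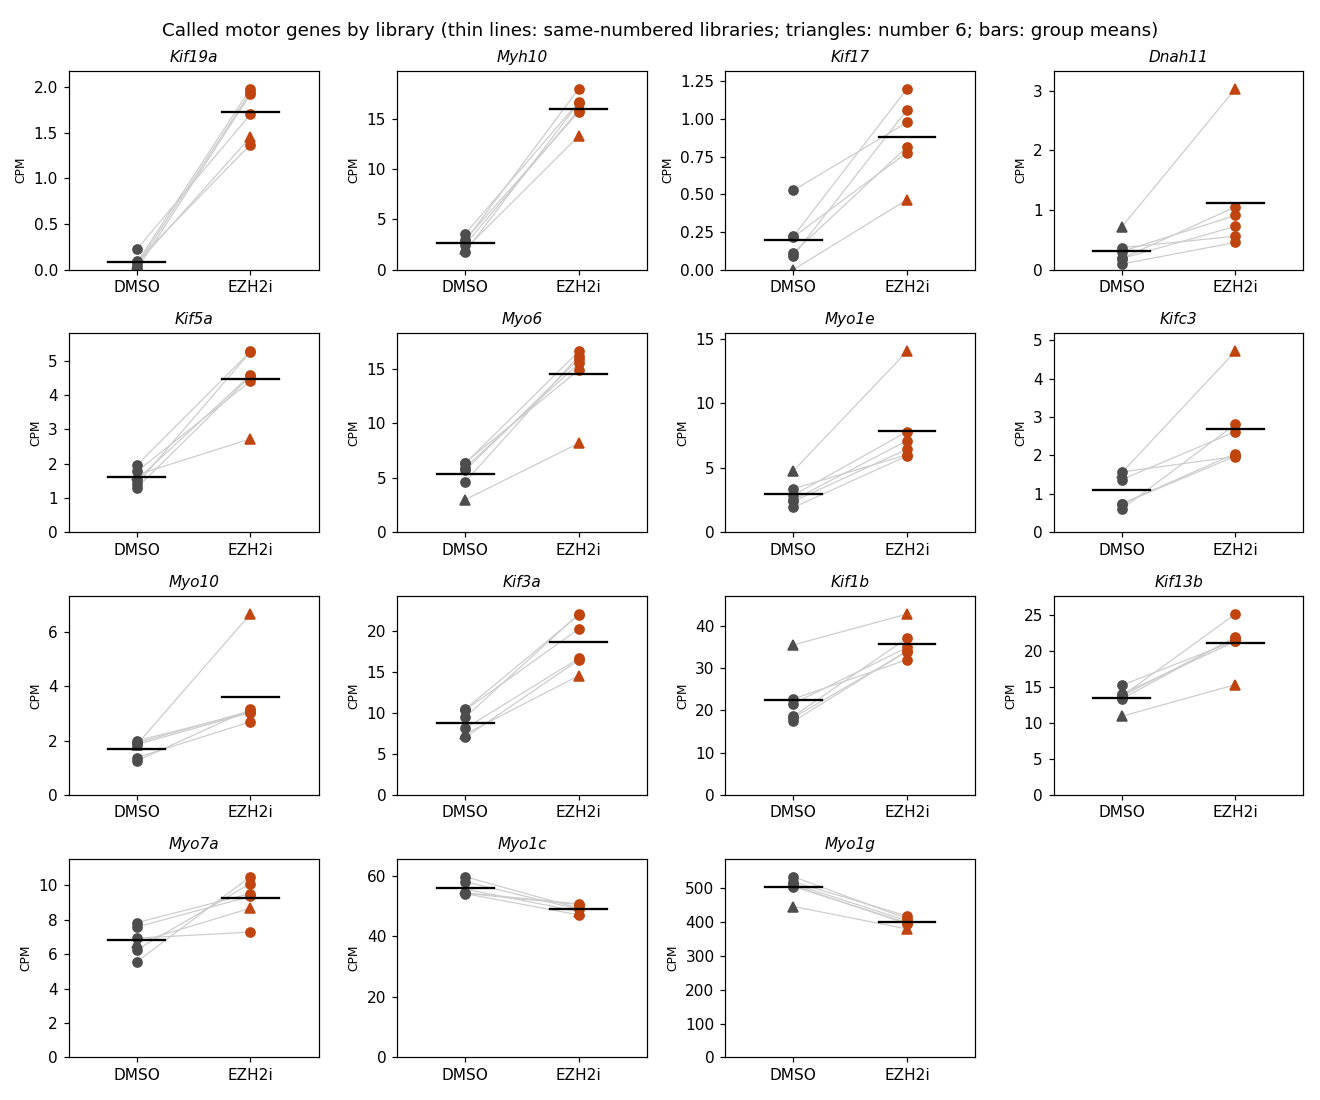
Level of 15 of the 16 called motor genes (CPM, linear axes from 0, 1 panel per gene) in the 6 DMSO and 6 EZH2i libraries, with thin lines between same-numbered libraries, triangles for number 6 and bars at the group means. The Myh10 groups are separated by a wide gap (up to 3.54 CPM in DMSO, from 13.3 CPM in EZH2i), whereas Kif1b and Myo7a overlap.

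Class I myosins are single-headed motors that link the plasma membrane to cortical actin. Of the 7 tested genes, 2 were higher, Myo1e among them, and 2 were lower (Myo1g and Myo1c) in EZH2i. With the block 4 were higher and 3 lower. The shares over all tested genes were 13.3% higher and 6.05% lower, or 24.7% and 24.3% with the block. Myo1g (chr11:6506548-6520965), a blood-cell myosin that sets T cell membrane tension, had 445, 510 and 533 CPM as the lowest, median and highest DMSO values and 379, 400 and 417 CPM in EZH2i. The ranges did not overlap, so each EZH2i library was necessarily below its same-numbered DMSO library. The mean fell from 503 ± 30.5 to 400 ± 13.2 CPM (SD, n = 6 each), a log2 fold change of -0.33 (SE 0.0557, adjusted p = 0.001), and the call held in all 20 alternatives run. The fall was of the size seen in Cd8a and Lck, whose part in it was not tested. Myo1c (chr11:75650504-75673910), which tethers vesicles to membranes, fell from 56.0 ± 2.34 to 49.1 ± 1.37 CPM (SD, n = 6 each), at an adjusted p of 0.0241 and a log2 fold change of -0.19 (SE 0.0532). Its groups did not overlap, the DMSO libraries starting at 54.1 CPM and the EZH2i libraries ending at 50.7 CPM. The Myo1c call was lost with upper-quartile scaling (adjusted p = 0.135 at a log2 fold change of -0.13) and without EZH2i library 3 or 4 (adjusted p = 0.054 each).

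Myo1f (chr17:33555707-33607764), another myosin of immune cells, was not called (adjusted p = 0.293 at a log2 fold change of -0.23), with means of 252 ± 42.0 CPM in DMSO and 216 ± 35.9 in EZH2i (SD, n = 6 each). It was lower in 6 of 6 same-numbered pairs and was called lower with the block (adjusted p = 0.000894) and without both libraries numbered 6 (adjusted p = 0.0032). Myo1e (chr9:70207350-70399766), a myosin of endocytosis and the leading edge, had 1.92, 2.68 and 4.76 CPM as the lowest, median and highest DMSO values and 5.90, 6.76 and 14.0 CPM in EZH2i. The groups did not overlap, although library 6 was the highest in both. This was a log2 fold change of 1.42 (SE 0.261, adjusted p = 0.0019). The sparsely counted Myo1d had 9 counts in DMSO and 63 in EZH2i and was not tested. Myo1h, which shares 25.8% of its exon length with Kctd10 on the other strand, had an adjusted p of 0.0603 at a log2 fold change of 1.31 and was called higher with the block (adjusted p = 5.83e-05).

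Among the other unconventional myosins, 3 of 11 tested genes were higher in EZH2i (5 with the block) and none was lower with edgeR, the block or DESeq2. Higher calls over all tested genes were 13.3%, or 24.7% with the block. Myo6 (chr9:80165031-80311729), the myosin that walks towards the minus end of actin and serves endocytosis, had 2.98, 5.79 and 6.39 CPM as the lowest, median and highest DMSO values. In EZH2i it had 8.17, 15.7 and 16.6 CPM, with no overlap, and library 6 was the lowest in both groups. This was a log2 fold change of 1.45 (SE 0.204, adjusted p = 0.000275). Myo10 (chr15:25622525-25813673), the motor of filopodium tips, rose from 1.7 ± 0.311 to 3.61 ± 1.5 CPM (SD, n = 6 each), a log2 fold change of 1.08 (SE 0.239, adjusted p = 0.00616). EZH2i library 6 reached 6.66 CPM and the other 5 lay between 2.69 and 3.15 CPM, and without both libraries numbered 6 the log2 fold change was 0.83. Myo7a (chr7:98051060-98119524), best known from the stereocilia of hair cells, rose less, from 6.81 ± 0.841 to 9.24 ± 1.15 CPM with overlapping groups (adjusted p = 0.017 at a log2 fold change of 0.44). The vesicle motor Myo5a (chr9:75071015-75223688) was at 61.5 ± 14.5 and 64.1 ± 13.3 CPM (adjusted p = 0.82 at a log2 fold change of 0.06), and Myo9b (chr8:71272714-71360713), which had the highest CPM of this list, was at 188 ± 15.9 and 182 ± 8.17 CPM (adjusted p = 0.672). Over all 20 tested myosins, 8 were called (40.0%, beside 19.3% of all tested genes). With the block 14 were called, 10 higher and 4 lower, beside 49.0% of all tested genes in either direction.

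The transport kinesins carry vesicles, organelles and RNA along microtubules, and 6 of 15 tested genes were higher in EZH2i and none lower, also with DESeq2. With the block 7 were higher and 2 lower. Over all tested genes 13.3% were higher and 6.05% lower, or 24.7% and 24.3% with the block. Kif5a (chr10:127225696-127263348), a kinesin-1 heavy chain found mainly in neurons, had 1.29, 1.59 and 1.95 CPM as the lowest, median and highest DMSO values and 2.72, 4.57 and 5.27 CPM in EZH2i. The groups did not overlap, and EZH2i library 6 was the lowest of its group. The mean rose from 1.6 ± 0.243 to 4.47 ± 0.931 CPM (SD, n = 6 each), a log2 fold change of 1.48 (SE 0.178, adjusted p = 8.05e-05). Kif5b (chr18:6201002-6242174), the kinesin-1 heavy chain of most cell types, was at 183 ± 23.1 and 160 ± 12.6 CPM (adjusted p = 0.132 at a log2 fold change of -0.19), and was called lower with the block (adjusted p = 0.00486) and without both libraries numbered 6 (adjusted p = 0.0106). Scaled for exon length, Kif5a made up 0.971% ± 0.169 of the kinesin-1 heavy chain counts in DMSO and 3.03% ± 0.742 in EZH2i (SD, n = 6 each), and Kif5b held most of the rest in both groups.

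Kinesin-2, which carries cargo into cilia and moves vesicles, pairs Kif3a with Kif3b or Kif3c. Kif3a (chr11:53567379-53601967) had 6.99, 8.75 and 10.4 CPM as the lowest, median and highest DMSO values and 14.5, 18.4 and 22.0 CPM in EZH2i. The ranges did not overlap, and the log2 fold change was 1.08 (SE 0.14, adjusted p = 0.000142). Its partners were not called without the block: Kif3b was at 49.3 ± 7.43 and 56.4 ± 5.12 CPM (adjusted p = 0.231 unblocked and 0.0103 blocked) and Kif3c at 24.8 ± 2.28 and 23.8 ± 3.13 CPM (adjusted p = 0.74). By length-scaled counts Kif3a was 16.9% ± 2.64 of the kinesin-2 trio in DMSO and 28.1% ± 2.46 in EZH2i, and Kif3c was 23.1% ± 1.22 and 17.5% ± 1.23 (SD, n = 6 each). Kif3c shares 35.3% of its exon length with a gene on the other strand, so its count is uncertain, and with it every share of the trio.

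**Figure D3:**
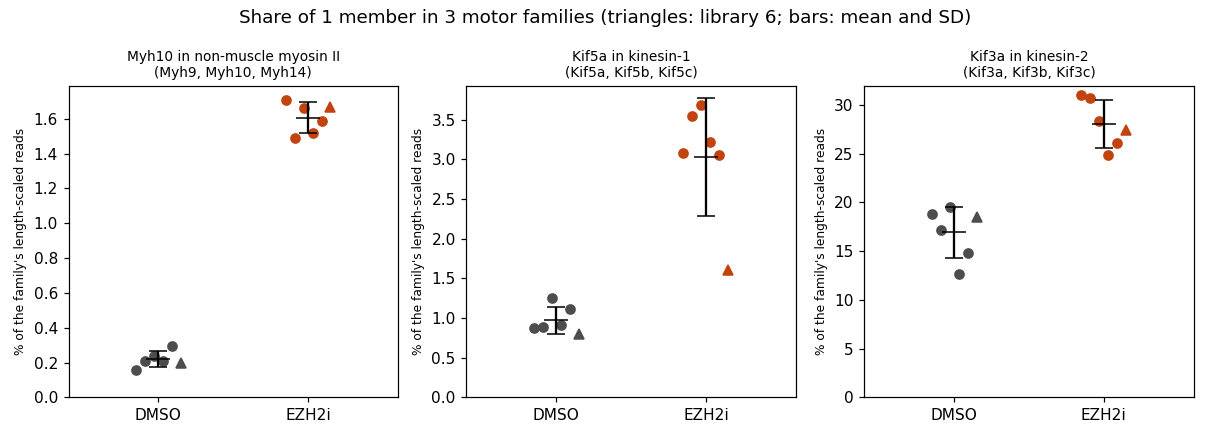
Share of Myh10 in non-muscle myosin II, of Kif5a in kinesin-1 and of Kif3a in kinesin-2, in percent of the length-scaled counts of the family, with 1 point per library, triangles for number 6 and bars for mean and SD. The Kif3a share lies at 12.7% to 19.5% in DMSO and 24.9% to 31.0% in EZH2i, and rests in part on the uncertain Kif3c count.

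The other higher transport kinesins were Kif17, Kifc3, Kif1b and Kif13b. Kif13b (chr14:64647265-64809617), which carries membrane scaffold proteins, rose from 13.5 ± 1.42 to 21.1 ± 3.19 CPM with no overlap (adjusted p = 0.00147 at a log2 fold change of 0.65, SE 0.115). Kif1b (chr4:149176319-149307693), a carrier of mitochondria and synaptic vesicle precursors, rose from 22.3 ± 6.77 to 35.8 ± 3.80 CPM (adjusted p = 0.00904 at a log2 fold change of 0.68, SE 0.16). DMSO library 6, at 35.5 CPM, lay inside the EZH2i range of 32.0 to 42.8 CPM, and the other 5 DMSO libraries lay at 22.7 CPM or less. Kifc3 (chr8:95099828-95202812), a minus-end kinesin, rose from 1.09 ± 0.448 to 2.69 ± 1.05 CPM with no overlap (adjusted p = 0.00836 at a log2 fold change of 1.32, SE 0.306), and its counts are uncertain where its exons overlap another gene. Kif17 (chr4:138250435-138301967), a carrier of dendrites and cilia, had 26 counts in all DMSO libraries and 141 in all EZH2i libraries, 0.194 ± 0.182 and 0.882 ± 0.257 CPM (adjusted p = 0.00541 at a log2 fold change of 2.15), with overlapping groups. Kif1a, a carrier of synaptic vesicle precursors, was not tested, with 0 counts in DMSO and 18 in EZH2i. The ratio is 5.01-fold if the DMSO group is set to 3 counts. Kif21b (chr1:136131389-136177998), which restrains microtubule growth, was the transport kinesin with the highest CPM, with 428, 592 and 650 CPM as the lowest, median and highest DMSO values and 320, 561 and 623 CPM in EZH2i (adjusted p = 0.611 at a log2 fold change of -0.12). Library 6 was the lowest for Kif21b in both groups, and the groups overlapped.

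Kif19a (chr11:114765388-114790739), which shortens microtubules at the tips of motile cilia, had the largest log2 fold change of the tested motor genes. Its counts were 2, 6, 0, 2, 1 and 1 in DMSO libraries 1 to 6 and 27, 54, 55, 51, 45 and 47 in EZH2i libraries 1 to 6. The highest DMSO library, at 0.221 CPM, lay well under the lowest EZH2i library, at 1.37 CPM, and the libraries numbered 6 lay within the others. The mean rose from 0.0817 ± 0.0751 to 1.73 ± 0.265 CPM (SD, n = 6 each), a log2 fold change of 4.23 (SE 0.372, adjusted p = 7.65e-06), and 4.83 without DMSO library 2. Even in EZH2i its level per exon length was low, 0.425 CPM per kb. It was the only called gene of the 4 tested ciliary and hedgehog kinesins. Kif7, a regulator of hedgehog signalling at the cilium tip, and Kif9 had log2 fold changes of 0.31 and 0.73 (adjusted p = 0.0717 and 0.0659) and were called higher with the block (adjusted p = 0.00941 and 0.00279). Kif24 (chr4:41390745-41464887), which restrains the assembly of cilia, was at 25.2 ± 2.15 and 25.1 ± 3.64 CPM (adjusted p = 0.967).

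Cytoplasmic dynein was not called in any tested subunit, with edgeR or with DESeq2. An unadjusted p under 0.05 was found for 1 of 4 dynein 1 chains, 1 of 6 light chains and 0 of 2 dynein 2 genes. Among the 4 tested chains of dynein 1, which carries cargo to the minus end, the heavy chain Dync1h1 (chr12:110601452-110666945) had 187, 194 and 259 CPM as the lowest, median and highest DMSO values and 171, 184 and 225 CPM in EZH2i. The groups overlapped, with library 6 at the top of the EZH2i group. The log2 fold change of -0.16 (SE 0.0978) had an adjusted p of 0.297 unblocked and 0.0263 blocked, and each same-numbered pair was lower (6 of 6). None of the 6 tested light chain genes was called. With the block 2 were higher and 2 lower, beside 24.7% and 24.3% of all tested genes. Dynlrb1, a light chain of the roadblock family with the highest CPM of that list, was at 93.6 ± 17 and 80.1 ± 10.7 CPM (adjusted p = 0.256 unblocked and 0.0189 blocked). Dynll1 (chr5:115297110-115300999) was at 85.2 ± 25.9 and 71.7 ± 19.8 CPM (adjusted p = 0.425 unblocked and 0.00631 blocked, at a log2 fold change of -0.25) and its close relative Dynll2 at 68.6 ± 7.77 and 82.8 ± 12.4 CPM (adjusted p = 0.0812 unblocked and 0.00137 blocked, at a log2 fold change of 0.27). The Dynlt1 genes are near-identical copies, so their counts are uncertain.

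Dynein 2 returns cargo from the cilium tip. Its heavy chain gene Dync2h1 (chr9:6928503-7184446) was at 16.1 ± 4.05 and 17.6 ± 3.21 CPM (adjusted p = 0.7), and its light intermediate chain gene Dync2li1 had an adjusted p of 0.173 unblocked and 0.000957 blocked at a log2 fold change of 0.77. Of the axonemal dynein heavy chain genes, 3 were tested and Dnah11 (chr12:117877982-118199043) was called. Dnah11 had 0.0924, 0.244 and 0.715 CPM as the lowest, median and highest DMSO values and 0.455, 0.816 and 3.03 CPM in EZH2i, on 38 and 194 counts. The groups overlapped, and library 6 was the highest in both. Its log2 fold change of 1.95 (SE 0.55, adjusted p = 0.0248) was 1.34 without EZH2i library 6, and the call was lost without DMSO library 1, 2 or 5 (adjusted p = 0.056, 0.0614 and 0.0508). Dnah17 was higher in 6 of 6 same-numbered pairs but was not called without the block (adjusted p = 0.0791 unblocked and 2.03e-06 blocked, at a log2 fold change of 0.77). Dnah8 (chr17:30624354-30877365), known from the sperm tail, had the highest CPM of the axonemal list, 69.6 ± 10.4 and 62.8 ± 11.4 CPM (adjusted p = 0.503 unblocked and 0.0433 blocked, at a log2 fold change of -0.15), which is 2.60 CPM per kb in DMSO over its long exons. No other axonemal heavy chain gene had more than 29 counts in a group.

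Over the 34 tested transport and ciliary motors, 8 were higher and none lower (23.5% called, beside 19.3% of all tested genes), with a median log2 fold change of 0.16 and 23 of 34 above 0. Upper-quartile scaling gave 10 higher calls and DESeq2 11, neither with a lower call, beside 15.3% and 15.0% higher over all tested genes. With the block, 15 were higher and 6 lower, beside 24.7% and 24.3% of all tested genes. Without both libraries numbered 6, 15 were higher and 2 lower, beside 23.9% and 20.9% of all genes tested in that fit. The genes gained there were Dnah17 (adjusted p = 4.87e-06), Kif9 (0.000352), Dync2li1 (0.000932), Dynll2 (0.013), Kif7 (0.0155), Dynlt1a and Kif3b on the higher side and Kif5b and Dynll1 (0.0138) on the lower side.

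Over the 13 tested mitotic kinesins, none was called, none had an unadjusted p under 0.05, and DESeq2 also called none. Their median log2 fold change was -0.16, and 11 of 13 were below 0, or 10 of 13 with upper-quartile scaling, beside 52.0% of all tested genes below 0. Of the 13, 12 lay at 77.8 CPM or more, where the median over all tested genes was -0.11. The difference between mitotic kinesins and the transport and ciliary motors was not tested as a group. With the block 8 of the 13 were lower (Kif18a, Kif20a, Kif2c, Kif4, Kif20b, Kif11, Kif15 and Kif22), beside 24.3% of all tested genes. Without both libraries numbered 6, 5 were lower (Kif18a, Kif20a, Kif2c, Kif4 and Kif11), beside 20.9% of all genes tested in that fit. Both counts concern log2 fold changes of -0.27 or smaller in size in the fit without the block.

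The mitotic kinesins were low in the libraries numbered 6. Library 6 was the lowest of its group in both groups for 11 of the 13 (84.6%), beside 31.0% of all tested genes. The same held for 18 of the 34 transport and ciliary motors (52.9%) and 9 of the 20 myosins (45.0%), so the other motors shared it in part. As the median over the 13 genes of log2 CPM relative to the DMSO mean, DMSO libraries 1 to 5 lay between -0.01 and 0.16 and DMSO library 6 at -0.45. EZH2i libraries 1 to 5 lay between -0.11 and 0.05 and EZH2i library 6 at -0.65. The same medians for the transport and ciliary motors were 0.01 to 0.08 in DMSO libraries 1 to 5 and 0.16 to 0.26 in EZH2i libraries 1 to 5, with -0.20 and -0.04 for the libraries numbered 6. Within either set of libraries, 1 to 5 or 6, the EZH2i medians were above the DMSO medians for transport and ciliary motors.

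Kif11 (chr19:37376403-37421859), the tetrameric kinesin that pushes spindle poles apart, had 453, 651 and 736 CPM as the lowest, median and highest DMSO values and 387, 593 and 629 CPM in EZH2i. Library 6 was the lowest in each group, and the other libraries of the groups overlapped. The log2 fold change of -0.17 (SE 0.134) had an adjusted p of 0.423 unblocked and 0.0126 blocked. Kif20a (chr18:34624613-34633277), which brings regulators to the midzone for cytokinesis, had 227, 313 and 324 CPM in DMSO and 172, 269 and 285 CPM in EZH2i in the same order. It was lower in 6 of 6 same-numbered pairs, with an adjusted p of 0.214 unblocked and 0.00126 blocked at a log2 fold change of -0.23 (SE 0.121), and shares 29.3% of its exon length with Cdc23 on the other strand. Kif18a (chr2:109280738-109341747), which damps chromosome movement at the metaphase plate, had the lowest log2 fold change of the set, -0.27 (SE 0.131), with an adjusted p of 0.169 unblocked and 0.0028 blocked. Kif23 (chr9:61915905-61946774), the kinesin of the centralspindlin complex, was at 197 ± 35.7 and 198 ± 44.7 CPM (SD, n = 6 each), with an adjusted p of 0.981 and a log2 fold change of 0.01 that changed sign with RLE scaling and with the block. Kif2a, a microtubule depolymerase also active outside mitosis, was the other mitotic kinesin above 0, at 0.08 (adjusted p = 0.56). Kifc1 shares sequence with Kifc5b, so its value (-0.09) is uncertain.

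**Figure D4:**
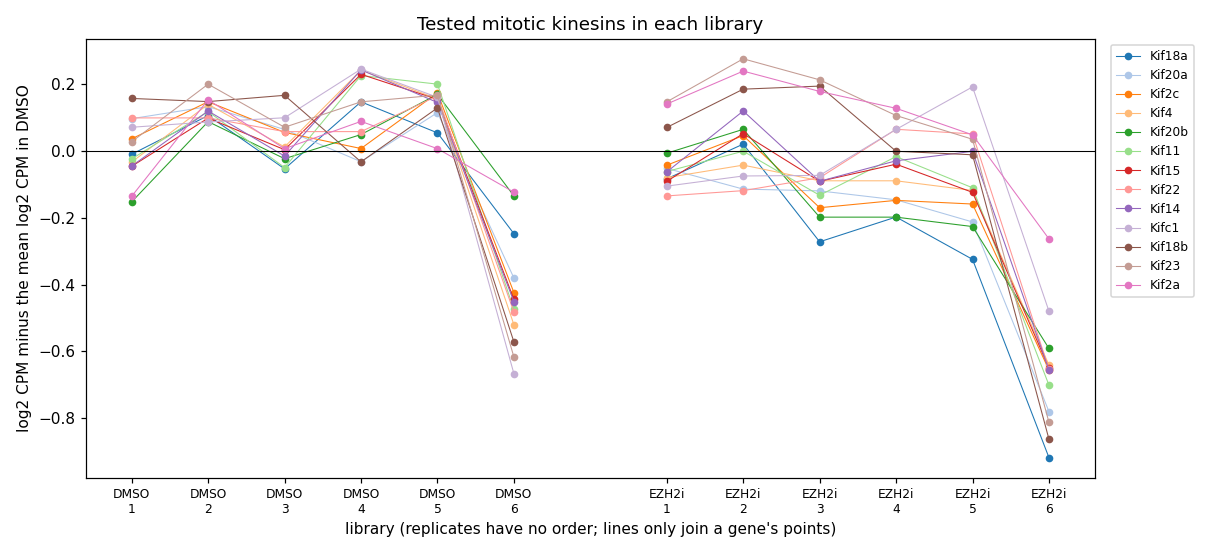
Log2 CPM of the 13 tested mitotic kinesins in each library, relative to the mean log2 CPM in DMSO, with 1 colour per gene and lines that only join its points. The median over the genes is -0.45 in DMSO library 6 and -0.65 in EZH2i library 6, and between -0.11 and 0.16 elsewhere.

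Promoter letters were read because the mitotic kinesins moved together across libraries. The CHR element TTTGAA, which cell cycle repressor complexes bind, was searched on both strands in the 250 bases before the RefSeq start (build GRCm38.p6). It was present in 5 of 12 windows of tested mitotic kinesins (Kif14, Kif2c, Kif22, Kif15 and Kif11; 41.7%), in 1 of 41 windows of other tested motor genes (2.44%) and in 16.3% of the 27025 windows of all genes. The CCAAT box, searched as CCAAT on both strands, was in 7 of 12 (58.3%), in 31.7% and in 34.5%. It was thus not particular to mitotic kinesins, as it was in 6 of the 9 windows of motor genes called higher (66.7%). TTTGAA was in 0 of those 9. Neither motif contains the other, and both were in 3 of the 12 windows (25.0%) and in 5.73% of all. A match is a description of the letters and not of binding, which was not measured. Of the 5, the 3 windows of Kif11, Kif15 and Kif22 are shown, 5′ to 3′ on the gene's strand, with matches to either motif, on either strand, in capitals. They are chr19:37376132-37376381 on the plus strand, chr9:122950831-122951080 on the plus strand and chr7:127042421-127042670 on the minus strand. They were shown because a TTTGAA match lies close before the start, beginning at -19 in Kif11 and Kif15 and at -17 in Kif22, whereas the matches of Kif14 and Kif2c begin at -228 and -103.
Kif11: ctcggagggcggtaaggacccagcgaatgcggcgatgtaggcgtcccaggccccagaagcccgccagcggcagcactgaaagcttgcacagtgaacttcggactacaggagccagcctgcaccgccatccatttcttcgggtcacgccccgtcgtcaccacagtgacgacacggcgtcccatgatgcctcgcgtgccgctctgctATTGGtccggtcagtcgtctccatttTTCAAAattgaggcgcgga
Kif15: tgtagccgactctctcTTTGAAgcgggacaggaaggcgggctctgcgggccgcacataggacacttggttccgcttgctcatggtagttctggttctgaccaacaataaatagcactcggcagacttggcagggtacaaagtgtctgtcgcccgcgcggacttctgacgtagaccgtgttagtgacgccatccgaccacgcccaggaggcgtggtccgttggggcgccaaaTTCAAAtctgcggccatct
Kif22: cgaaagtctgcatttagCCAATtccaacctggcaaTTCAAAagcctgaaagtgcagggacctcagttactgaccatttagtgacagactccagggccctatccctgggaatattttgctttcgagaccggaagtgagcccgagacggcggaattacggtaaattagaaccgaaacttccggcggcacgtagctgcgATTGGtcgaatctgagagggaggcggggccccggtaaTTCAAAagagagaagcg

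The windows of Myh10 and Myo1g, a higher and a lower myosin gene chosen after their values were seen, are shown with CpG dinucleotides, the sites of DNA methylation, in capitals. The Myh10 window (chr11:68691665-68691914, plus strand; its RefSeq start lies downstream of the GENCODE gene start given above) held 15 CpG and the Myo1g window (chr11:6520959-6521208, minus strand) held 2. The median was 15 over the 9 windows of motor genes called higher, 2 over the windows of Myo1g and Myo1c, 18.5 over the 42 windows of tested motor genes not called, and 6 over the windows of all genes.
Myh10: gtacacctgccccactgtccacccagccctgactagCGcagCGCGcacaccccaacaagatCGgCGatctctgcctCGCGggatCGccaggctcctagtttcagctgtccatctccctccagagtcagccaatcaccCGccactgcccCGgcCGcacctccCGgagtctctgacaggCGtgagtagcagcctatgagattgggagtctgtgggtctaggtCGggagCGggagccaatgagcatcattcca
Myo1g: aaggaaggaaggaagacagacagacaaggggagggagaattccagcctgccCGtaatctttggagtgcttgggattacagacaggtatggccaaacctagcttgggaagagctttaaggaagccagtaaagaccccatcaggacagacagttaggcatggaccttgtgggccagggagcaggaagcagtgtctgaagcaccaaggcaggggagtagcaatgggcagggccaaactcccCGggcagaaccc

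Calls in the motor genes followed their abundance, as they did in the whole table. When all tested genes were cut into 4 equal bins of mean CPM, the lowest bin (0.318 to 8.61 CPM) held 21 motor genes, of which 9 were higher, beside 30.0% higher in all genes of that bin. The next bin (8.62 to 30.5 CPM) held 13, of which 5 were higher, beside 13.9%. The 2 upper bins held 33 motor genes with no higher call, beside 5.80% and 3.44%, and both lower calls, beside 7.88% and 11.7%. Of the 13 mitotic kinesins 12 were in the top bin, where the median log2 fold change was -0.16 for the 23 motor genes and -0.11 for all genes. In the lowest bin the medians were 0.73 and 0.37. A fold change in the lowest bin rests on fewer counts than one in the top bin. A gene that passed the filter on low counts through the EZH2i libraries alone could be called higher but hardly lower. Kif19a and Kif17, with few DMSO counts, are such genes, so the higher calls of the lowest bin are not independent of the filter.

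**Figure D5:**
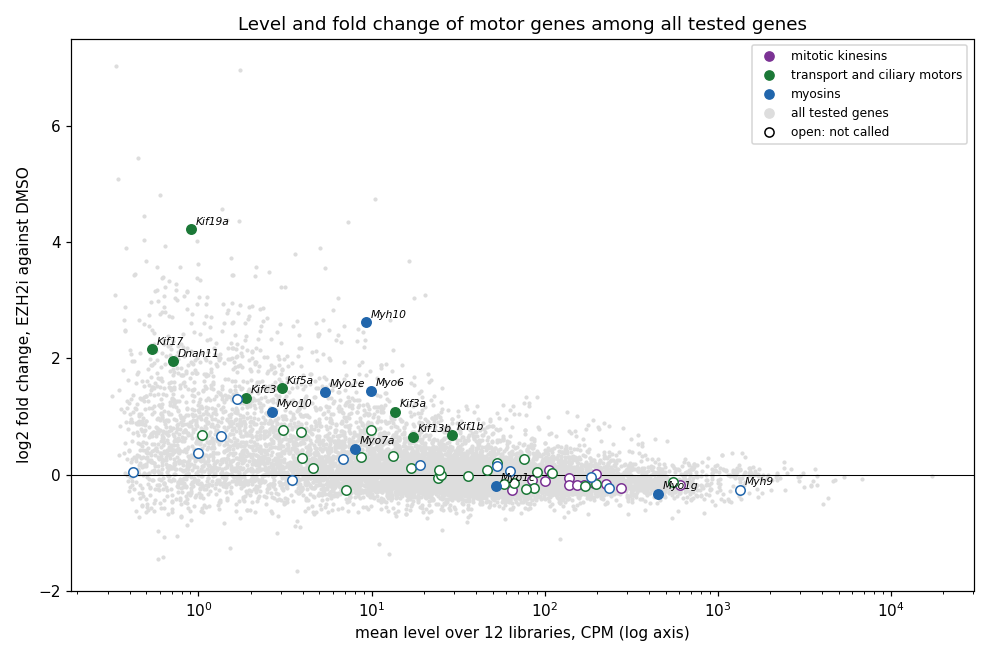
Log2 fold change against mean CPM (log axis) for all tested genes (grey) and 66 of the 67 tested motor genes (coloured by role, open where not called). The higher motor genes shown lie at 30.5 CPM or less, and 12 of the 13 mitotic kinesins lie at 77.8 CPM or more.

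Genes that work with the motors were taken from lists of partners, whose counts stand beside 13.3% higher and 6.05% lower over all tested genes, or 24.7% and 24.3% with the block. Myosin light chains and their regulators had 1 higher and 3 lower of 11 tested, or 2 and 5 with the block. Myl6, the essential light chain of non-muscle myosin II, fell from 474 ± 34.9 to 339 ± 15.1 CPM (SD, n = 6 each; log2 fold change -0.48, adjusted p = 0.000136). The other calls of this list were less stable over the 20 alternatives. Myl4, an atrial essential light chain, was higher by 0.41 on the log2 scale (adjusted p = 0.0315, lost in 10). Myl12a, a regulatory light chain (-0.25, adjusted p = 0.0395), and Ppp1cb, the catalytic subunit of myosin phosphatase (-0.25, adjusted p = 0.0226), were lower, with the call lost in 10 and 4. Of 7 tested adaptors of myosins V and VII, 2 were higher, whereas 3 were higher and 1 lower with the block and 1 was higher with DESeq2. Rab27b, a small GTPase of secretory granules, rose by 0.98 on the log2 scale (adjusted p = 0.00423). Myrip, which links RAB27 to myosins, rose by 3.57 (adjusted p = 0.00584), from 0.368 ± 0.611 to 3.91 ± 3.68 CPM, with 11.4 CPM in EZH2i library 6. Natural killer cell markers, whose cells also carry such granules, summed to 0.734 to 1.61 CPM in DMSO and 4.15 to 9.69 CPM in EZH2i. The rise lay in Klrb1c, at 0.852 ± 0.356 and 5.1 ± 2.1 CPM. Tyrobp was at 0.304 ± 0.124 and 0.318 ± 0.084 CPM, Klra8 at 0 and Ncr1 at 6 and 8 counts. The part of natural killer cells was not tested.

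Among partners of the microtubule motors, kinesin light chains and adaptors had 2 higher and 1 lower of 15 tested, or 5 and 2 with the block. Mapk8ip1, a kinesin-1 scaffold, rose by 1.98 on the log2 scale (adjusted p = 0.000866) and the light chain gene Klc2 by 0.45 (adjusted p = 0.00858), whereas Rhot2, a mitochondrial adaptor, fell by 0.20 (adjusted p = 0.0217), a call lost with upper-quartile scaling and without EZH2i library 3. Without the block, the counts of this list were close to the shares over all genes. Dynein regulators had 4 higher and 1 lower of 15 (7 and 1 with the block), led by the cargo adaptors Bicd1 (2.1, adjusted p = 0.00387) and Ninl (1.73, adjusted p = 0.00074) and by Ccdc88a (0.83, adjusted p = 0.00233). The kinetochore adaptor Spdl1 was lower (-0.27, adjusted p = 0.0143), except with upper-quartile scaling (adjusted p = 0.0608). None of the 12 tested dynactin genes was called with edgeR, 2 had an unadjusted p under 0.05, and DESeq2 called 2 lower and the block 4 lower. The smallest p of that list belonged to Capza1 (adjusted p = 0.0583 at a log2 fold change of -0.20). Tubulin genes, the track of kinesins and dyneins, had 3 higher and 3 lower of 13, or 5 of each with the block. Tuba8 rose by 2.32 (adjusted p = 0.00103), Tubb6 by 1.15 (adjusted p = 0.0182) and Tubb2b by 1.09 (adjusted p = 0.027, a call lost in 5 leave-outs of 1 library). Tuba1a fell by 0.60 (adjusted p = 0.00344), Tubb3 by 0.47 (adjusted p = 0.0164) and Tubb4b by 0.30 (adjusted p = 0.002) on the log2 scale. These 3 lower calls held in all 20 alternatives. Of 9 tested genes of cilia and axonemes, 1 was higher, or 3 with the block. It was Ift88, a subunit of the intraflagellar train (adjusted p = 0.0473 at a log2 fold change of 0.50), whose call was lost in 11 of 20 alternatives, 10 of which left out 1 library. Foxj1, the regulator of motile cilia genes, had 19 counts in DMSO and 89 in EZH2i and was not tested.

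Of the 20 tested regulators of mitotic kinesins, such as spindle checkpoint and midzone genes, none was called without the block (1 had an unadjusted p under 0.05, and DESeq2 called 1 lower) and 12 were lower with it, beside 24.3% of all tested genes. All 20 had log2 fold changes below 0 (median -0.14), beside 52.0% of all tested genes. With upper-quartile scaling 18 of 20 were below 0. Their DMSO means ran from 131 to 1897 CPM, and abundant genes in general were lower. The median log2 fold change over all tested genes at 77.8 CPM or more was -0.11. Library 6 was the lowest of its group in both groups for 18 of the 20, beside 31.0% of all tested genes.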

How the data were processed

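Polyadenylated RNA of 12 libraries, 6 per group, was sequenced as single-end reads from a stranded kit, per the labels' protocols. The authors deposited raw read counts per gene symbol for each library. Per the submitters' processing notes, the software included TopHat2 2.1.1, featureCounts, Trimmomatic 0.38, SAMtools 1.9 and FastQC 0.11.7, and the build was GRCm38 (mm10). Which annotation was used, and how strand and multi-mapping reads were handled, is not given in the sources used here, so overlapping, antisense and near-identical genes are uncertain.

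The software here was edgeR 4.0.16 with limma 3.58.1 under R 4.3.3. The default filterByExpr left 11727 genes and TMM scaled the libraries. A two-sided quasi-likelihood test of the group alone was run per gene, with Benjamini-Hochberg adjustment over all of them. The SE was taken as the absolute log2 fold change over the root of F. CPM refer to the TMM-scaled library size. Alternatives were the replicate block, other scalings and filters, DESeq2 1.42.0 and leaving out libraries. The fit of both libraries numbered 6 left out with the block was added after seeing the data. The script was tested on simulated data. Positions and union exon lengths come from GENCODE M21, in which all 104 motor genes were found, and promoter letters from a RefSeq table (GRCm38.p6), in which 85 were found (the first window listed was used).

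Every called motor gene was to be named, and 1 is not reported here. In each role list up to 4 called genes by size of change reaching 1 CPM in either group's mean, the gene with the highest CPM, and 11 others (Kif11, Kif23, Kif20a, Kif5b, Kif21b, Dync1h1, Dynll1, Myh9, Myo1g, Myo1f and Myo5a) were to be described in full. Up to 3 called genes of each partner list were named, or the one with the smallest p. Other genes were named after their values were seen. The members and lists were chosen with earlier results of these data known.

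After the group means were subtracted, the correlation across tested genes between the libraries that share a number was r = 0.289, 0.565, 0.39, 0.608, 0.381 and 0.894 (numbers 1 to 6). All were over 0.1, so same-numbered libraries were compared as pairs and blocked in the alternative fits, although no label explains the numbers. The main fit did not use the pairs. Without number 6, r was 0.297, 0.246, 0.219, 0.428 and -0.0278. Over all 6 numbers, only the libraries numbered 2, 4 and 6 correlated best with their own number. The pairing is therefore not settled, and blocked values rest on it.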

Additional observations from a re-analysis of the deposited data

Results flagged for a closer look

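Of 60 groups of 6 values (the motor genes named by the rule, 1 left out, in each treatment), 25 had 1 library whose gap to its nearest neighbour exceeded Dixon's 95% critical value as a share of the range. Chance flags about 1 in 20 groups where groups are independent, but these come from the same 12 libraries and are not. In all 25 it was library 6. In the DMSO group it was high for Kif5b (228 CPM), Dynll1 (136 CPM), Myo5a (91.0 CPM) and Kif1b (35.5 CPM), and low for Myo1g (445 CPM), Kif21b (428 CPM), Kif20a (227 CPM), Myo1f (172 CPM) and Kif23 (126 CPM). In the EZH2i group it was high for Dync1h1 (225 CPM), Kif5b (185 CPM), Dynll1 (111 CPM), Myo5a (91.0 CPM), Myo1e (14.0 CPM), Myo10 (6.66 CPM), Kifc3 (4.71 CPM) and Dnah11 (3.03 CPM). It was low there for Kif11 (387 CPM), Kif21b (320 CPM), Kif20a (172 CPM), Myo1f (143 CPM), Kif23 (110 CPM), Dnah8 (40.3 CPM), Myo6 (8.17 CPM) and Kif5a (2.72 CPM). For 7 of the genes, Kif21b, Myo1f, Kif5b, Kif20a, Dynll1, Kif23 and Myo5a, library 6 stood apart in the same direction in both groups.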

How the results depend on the processing

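Of the 16 called motor genes, 14 kept their direction and call in each of the 20 alternatives in which they were tested, and Myo1c and Dnah11 lost it in 3 each. Kif17 and Dnah11 were not tested with a filter of 1 CPM in 6 libraries. Higher motor calls (14) became 25 with the replicate block, 24 without both libraries numbered 6 and 24 with both changes. Lower motor calls (2) became 18, 11 and 14, and 1 with upper-quartile scaling. Mitotic kinesin calls (0) became 8, 5 and 7, transport and ciliary calls (8) became 21, 17 and 18, and myosin calls (8) became 14, 13 and 13. Over all genes, higher calls (1557) became 2892, 2815 and 3064. Lower calls (709) became 2849, 2455 and 2843, 347 with upper-quartile scaling and 1125 with DESeq2.

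When each library was left out in turn, higher motor calls ran from 13 to 21, lower ones from 1 to 3 (1 without EZH2i library 3 or 4), transport and ciliary calls from 7 to 14 (14 without EZH2i library 6) and myosin calls from 7 to 10, and mitotic kinesin calls stayed at 0. Over all genes, higher calls ran from 1297 to 2262 and lower calls from 435 (without EZH2i library 3) to 1817 (without EZH2i library 6).

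Genes near 0 and never called changed sign. Kif24 was at 0.053 with upper-quartile scaling, 0.015 without both libraries numbered 6 and 0.010 with the replicate block as well, and between 0.000 and 0.050 when single libraries were left out. Kif23 was at -0.006 with the replicate block, -0.004 with RLE scaling and with DESeq2, -0.006 with no filter, and between -0.094 and -0.001 in the 6 sign changes on leaving out a library. Myo9b was at 0.014 with upper-quartile scaling, and with single libraries left out Dync2h1 ran from -0.000 to 0.209, Myo5a from -0.066 to 0.203 and Kif23 up to 0.13. The causes were not tested. Counts under about 30 per group limit Kif17 and Kif19a in DMSO.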
